A study of Homo sapiens with 4 samples.

Results

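Transcripts of 9 surface glycoproteins and mucins of epithelial cells were followed in MCF10AT, a human mammary epithelial line. The genes were taken by symbol from the deposited count table, which lists 58233 genes, and all 9 were found: the adhesion molecule gene EPCAM, the transmembrane mucin genes MUC1, MUC4, MUC16 and MUC20, the carcinoembryonic antigen family genes CEACAM1 and CEACAM6, and the membrane protein genes CDCP1 and PROM2. The comparison sets 2 Bromo+/- libraries against 2 libraries of the Non-target control. All 4 come from cells described as transformed by HRasG12V, kept in medium holding insulin, hydrocortisone, cholera toxin, horse serum and EGF. The labels' protocols describe lentiviral shRNA transduction with puromycin selection and the series title speaks of EP300 knockdown, while the genotype field gives Bromo+/- without spelling it out. No label says whether the libraries of a group come from separate cultures or from 1 clone. In the column headers, both libraries of a group carry the same number before that of the replicate, and its meaning is not given. If each group is 1 line, a difference between lines cannot be told apart from the genotype. Each p-value reflects the scatter among these 4 libraries alone, which may be technical.

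Epithelia cover their free surface with glycoproteins. Transmembrane mucins are long proteins densely coated with O-linked sugars that hydrate and shield the apical membrane, and their short cytoplasmic tails can signal. EPCAM holds neighbouring cells together and binds claudins, CEACAM proteins are immunoglobulin-fold adhesion molecules, CDCP1 is a CUB-domain protein phosphorylated by SRC-family kinases, and prominin-2 sits in membrane protrusions. In the mammary gland MUC1 lines the ductal lumen, and EPCAM and MUC1 are used as markers of the luminal side.

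EP300 was read first in every library. It had 1485 and 1426 counts in the Bromo+/- libraries, against 1113 and 1281 in the controls (log2 fold change 0.19, SE 0.06, edgeR adjusted p = 0.00701), so the gene named in the title was not lower. That call ended without control replicate 1 (edgeR adjusted p = 0.162), without control replicate 2 (0.0521) and with the DESeq2 Wald test (0.0639). Libraries held 11975396 and 10953756 counts in the Bromo+/- group, against 10835237 and 11884715 in the controls, and mitochondrially encoded genes took 5.05% to 5.18% of them in the Bromo+/- group, against 4.21% to 4.32%. Among 9 tested markers of mammary epithelium, all 9 were lower at an adjusted p of 0.05 (median log2 fold change -2.98). KRT7, named after its values were seen, differed least, at 3294 ± 236 CPM in Bromo+/- cells and 3623 ± 59.2 CPM in controls (log2 fold change -0.14, SE 0.05, edgeR adjusted p = 0.0193). Its call ended with upper quartile scaling (0.177), with library size alone (0.361), and without Bromo+/- replicate 2 (0.320), control replicate 1 (0.205) or control replicate 2 (0.0906). Of 12 mesenchymal markers 8 were higher and none lower (median 1.43), while 27.1% of all tested genes were lower and 26.4% higher. The labelled cell type was thus less marked in the Bromo+/- libraries, where the keratins KRT8 (-2.98), KRT17 (-3.50) and KRT5 (-2.77) fell. KRT14, named after its values were seen, had 0 counts in both Bromo+/- libraries, against 74 and 88. KRT14 and another of the 9 epithelial markers passed the filter on low counts only through the controls. A gene among the 8 mesenchymal markers that rose passed it only through the Bromo+/- libraries. Such genes could pass the test only by differing. In bulk RNA, fewer cells of a type and less RNA per cell cannot be told apart.

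Promoter windows are shown first, before the levels of the surface genes. Windows of 300 bases, from 250 before to 50 after the start site, were matched in RefSeq (GRCh38.p14) for 7 of the 9 genes. There were 9 windows in all since MUC1 and MUC16 have more than 1 start. EPCAM and MUC20 had no window and MUC4 had one, so these are not the same 7 genes as those with enough counts to be tested. A motif written CACCTG on either strand (CAGGTG on the other), the E-box form bound by ZEB and SNAIL repressors, was searched in each and is in capitals below. It occurred in 5 of the 9 windows, from 3 of the 7 genes, MUC1, MUC16 and CDCP1. The MUC1 windows overlap almost wholly and hold the same pair of sites. Over all genes it occurred in 20.6% of 35116 windows of this length, and over the tested genes in 18.7% of 14809. The lines below show MUC1, which fell moderately and has paired E-boxes, and CDCP1, which changed least and has a single one. They also show PROM2, which fell strongly without one, and the CEACAM pair. MUC16, not printed, holds the motif in both windows and fell at least 75.9-fold. A relation of motif to fall was not tested.
MUC1 chr1:155192866-155193165, minus strand: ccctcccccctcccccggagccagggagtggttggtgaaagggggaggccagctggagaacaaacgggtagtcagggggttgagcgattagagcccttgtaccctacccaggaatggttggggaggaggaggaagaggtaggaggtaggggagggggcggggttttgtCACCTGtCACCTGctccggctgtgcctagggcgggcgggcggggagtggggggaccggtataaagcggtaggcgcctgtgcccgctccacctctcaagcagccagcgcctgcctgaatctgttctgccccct
CDCP1 chr3:45146329-45146628, minus strand: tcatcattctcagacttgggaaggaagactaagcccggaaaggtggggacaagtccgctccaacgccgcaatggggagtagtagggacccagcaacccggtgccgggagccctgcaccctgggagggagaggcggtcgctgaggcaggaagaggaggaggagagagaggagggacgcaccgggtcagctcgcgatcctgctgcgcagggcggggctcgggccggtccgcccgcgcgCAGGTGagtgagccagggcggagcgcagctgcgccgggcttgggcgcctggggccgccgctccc
PROM2 chr2:95274199-95274498, plus strand: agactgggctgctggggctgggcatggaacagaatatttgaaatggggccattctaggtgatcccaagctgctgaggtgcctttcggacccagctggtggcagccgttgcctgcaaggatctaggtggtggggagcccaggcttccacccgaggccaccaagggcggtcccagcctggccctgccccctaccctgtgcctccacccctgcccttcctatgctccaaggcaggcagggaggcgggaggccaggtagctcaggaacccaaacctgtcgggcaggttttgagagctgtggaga
CEACAM1 chr19:42528432-42528731, minus strand: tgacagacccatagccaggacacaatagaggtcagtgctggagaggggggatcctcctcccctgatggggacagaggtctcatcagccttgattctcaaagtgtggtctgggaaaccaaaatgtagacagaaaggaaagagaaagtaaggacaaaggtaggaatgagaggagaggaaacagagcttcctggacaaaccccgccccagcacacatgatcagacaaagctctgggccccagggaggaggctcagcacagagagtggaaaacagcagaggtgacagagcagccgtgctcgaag
CEACAM6 chr19:41755280-41755579, plus strand: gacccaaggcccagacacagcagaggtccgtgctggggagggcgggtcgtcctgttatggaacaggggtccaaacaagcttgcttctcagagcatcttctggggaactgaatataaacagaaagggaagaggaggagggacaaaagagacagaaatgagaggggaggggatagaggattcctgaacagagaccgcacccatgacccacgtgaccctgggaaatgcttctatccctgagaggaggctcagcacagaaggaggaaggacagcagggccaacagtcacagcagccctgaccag
In the MUC1 window the E-boxes began 82 and 75 bases before the start site, upstream of a TATAAA at 24 bases before it, and 4 copies of GGGCGG (either strand), a GC box, lay around them. In CDCP1 the single E-box began 14 bases before the start. Neither CEACAM window nor the PROM2 window held CACCTG, which says only that these letters are not in the window. A GC box was found in 45.0% of all windows and in 65.8% of those of tested genes. TATAAA (either strand) was found in 11.5% of all and in 6.25% of those of tested genes, and TGANTCA, the AP-1 motif, in 7.71% and 5.57% in the same order. The CEACAM1 and CEACAM6 windows were alike, with 214 identical bases of 286 aligned (74.8%), while other pairs of different genes gave 56.4% to 68.1% in the same gapped alignment. Both MUC16 start sites lie outside the deposited gene, 29067 and 84409 bases beyond its first base, so exons there were not counted for it. The CEACAM1 and CEACAM6 start sites lie inside the deposited genes, 32753 and 4553 bases from their first bases.

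Of the 9 genes, 7 had enough counts to be tested, and each of these 7 was lower in the Bromo+/- libraries. The test was the quasi-likelihood test of edgeR with adjusted p under 0.05. Over all 13179 tested genes, 53.5% passed it, 27.1% as lower and 26.4% as higher, so a fall alone is common here. Scaled by library size alone, 2800 genes passed as lower and 4430 as higher, in place of 3570 and 3485. A fall of at least 4-fold was seen in 6 of the 7, and in 3.77% of all tested genes. The same 6 were the ones past 2-fold, against 7.53% of all. The surface genes were chosen with earlier results of these data known, so these shares do not test the list. In all 7 both Bromo+/- libraries lay below both controls, as in 37.5% of tested genes, while 37.8% lay above. MUC16 and CEACAM6 passed the filter on low counts only through the controls, and so could pass it only by differing. Values below are scaled CPM, counts scaled to a common library size, adjusted for composition, and log2 fold changes of Bromo+/- over control. The plot of CPM by library shows the 9 genes on their own scales.

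**Figure D1:**
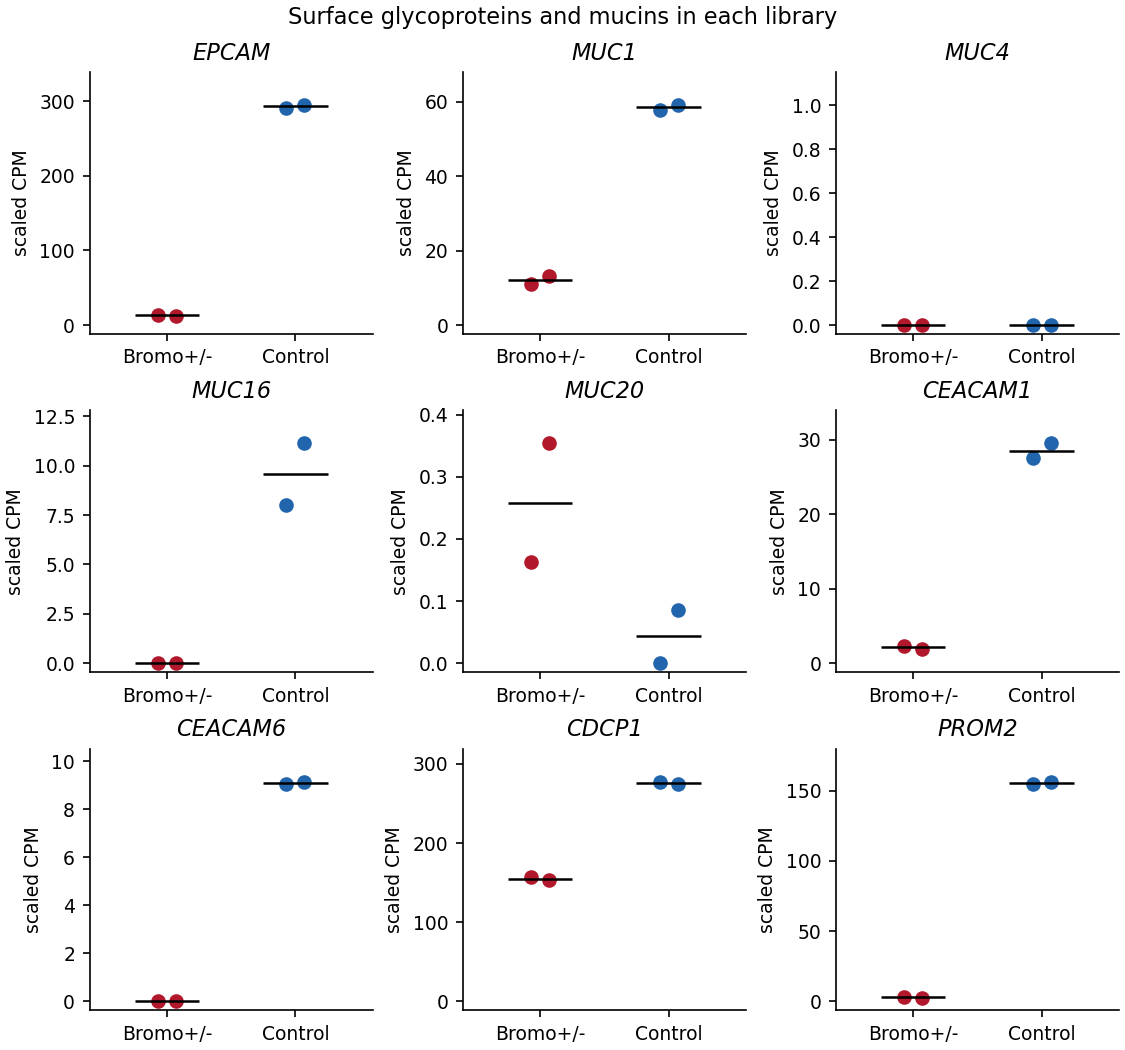
Scaled CPM of each of the 9 genes in the 2 Bromo+/- libraries (red, left) and the 2 control libraries (blue, right), with the group mean as a line and a separate linear axis for each gene. EPCAM stands near 13 CPM in the Bromo+/- libraries and above 291 CPM in the controls, CDCP1 keeps over 150 CPM in each Bromo+/- library, and MUC4 is at 0 throughout.

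EPCAM, the homophilic adhesion molecule, had 13.4 and 12.7 CPM in the Bromo+/- libraries, against 291 and 295 CPM in the controls. The groups lie far apart and the libraries within each are close. The mean was 13.1 ± 0.49 CPM in Bromo+/- cells and 293 ± 2.41 CPM in controls (SD, n = 2 each), 22.4-fold lower, with a log2 fold change of -4.48 (SE 0.09, edgeR adjusted p = 2.76e-144). EPCAM lies on chromosome 2 (GRCh38, 47345158 to 47387601, plus strand) with 10 exon blocks. Of the 50-base words in EPCAM transcripts 1.65% also occur in a transcript of another gene. The handling of multiply mapped reads is not given in the sources used here, so the share of misplaced reads in its count was not tested.

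The transmembrane mucins differed widely in level. MUC1, the mucin of the luminal mammary surface, had 11.1 and 13.2 CPM in the Bromo+/- libraries, against 57.9 and 59.0 CPM in the controls. Its groups do not overlap, and the Bromo+/- libraries are further apart from each other than the controls are. MUC1 averaged 12.1 ± 1.49 CPM in Bromo+/- cells and 58.5 ± 0.83 CPM in controls, 4.82-fold lower (log2 fold change -2.27, SE 0.11, edgeR adjusted p = 1.95e-62; chromosome 1, 155185824 to 155192916, minus strand).

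MUC16, which carries the CA125 antigen, had no count in either Bromo+/- library, against 84 and 129 counts in the controls, or 8.01 and 11.1 CPM. With 3 counts over the group as the floor, it was at least 75.9-fold lower (edgeR adjusted p = 2.63e-39). The controls are less even for this gene than for the others tested. MUC16 spans chromosome 19, 8848844 to 8981342, on the minus strand, with 84 exon blocks and 43830 exon bases.

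MUC4, a large mucin that binds ERBB2, had no count in any of the 4 libraries, which allows up to 0.244 to 0.286 CPM in each by 3 counts, so no difference was detectable at this depth. MUC20, a mucin that binds the MET receptor, had 2 and 4 counts in the Bromo+/- libraries, against 0 and 1 in the controls. The ratio of Bromo+/- to control was 5.61, with a 95% exact interval of 0.681 to 258 that includes no change, and MUC20 was not tested. Both genes lie side by side on chromosome 3 (MUC20 from 195720882 to 195741123, MUC4 from 195746765 to 195812277). The long non-coding gene MUC20-OT1 shares 1820 exon bases with MUC20 on the same strand (42.8% of the exons of MUC20) and had 161 and 151 counts in the Bromo+/- libraries, against 120 and 141. How reads in the shared part were assigned is not given in the sources used here, and 54.1% of the 50-base words of MUC20 occur in other genes, so the level of MUC20 is uncertain.

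CEACAM1 and CEACAM6, which encode adhesion receptors of the immunoglobulin superfamily, were both lower in Bromo+/- cells. CEACAM1, whose product has a cytoplasmic tail that can inhibit signalling, had 28 and 22 counts in the Bromo+/- libraries, against 289 and 342 in the controls. That is 2.28 and 1.95 CPM against 27.6 and 29.5 CPM, with no overlap. The fall was 13.5-fold (log2 fold change -3.75, SE 0.22, edgeR adjusted p = 1.23e-60). CEACAM6, anchored in the membrane by a lipid, had no count in either Bromo+/- library, against 95 and 106 in the controls, at least 71.6-fold lower (edgeR adjusted p = 6.92e-40).

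The controls for CEACAM6 are even, at 9.06 and 9.15 CPM. Counts of these genes may be exposed to their relatives, since 3.29% of the 50-base words of CEACAM1 and 6.99% of those of CEACAM6 occur in transcripts of other genes. An antisense gene, LIPE-AS1, shares 185 exon bases with CEACAM1 on the opposite strand and had 9 and 11 counts in the Bromo+/- libraries, against 5 and 4. CEACAM1 lies on chromosome 19 from 42507304 to 42561234 (minus strand), and CEACAM6 on the same chromosome from 41750977 to 41772208 (plus strand). Of 10 other CEACAM genes, 6 had no count and 2 were tested. CEACAM5, the carcinoembryonic antigen gene, had 0 and 0 counts in the Bromo+/- libraries, against 31 and 63 (at least 33.5-fold lower, edgeR adjusted p = 5.31e-22), and like CEACAM6 it passed the filter only through the controls. CEACAM19 had 129 and 121 counts, against 97 and 112, and did not pass (log2 fold change 0.16, SE 0.15, edgeR adjusted p = 0.368). CEACAM20 had 0 counts in the Bromo+/- libraries, against 1 and 1, and CEACAM21 had 0, against 1 and 0.

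PROM2, which encodes the membrane-protrusion protein prominin-2, had 3.25 and 2.74 CPM in the Bromo+/- libraries, against 155 and 157 CPM in the controls. Among the tested surface genes counted in both groups it fell most, by 51.9-fold (log2 fold change -5.69, SE 0.18, edgeR adjusted p = 7.89e-133). It lies on chromosome 2 from 95274453 to 95291308, and no 50-base word of it occurs in another gene. Its paralogue PROM1, the gene of CD133, had no count in any library.

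CDCP1, the SRC-kinase substrate that matriptase can cleave, changed least. It had 157 and 153 CPM in the Bromo+/- libraries, against 278 and 274 CPM in the controls, so each Bromo+/- library kept more than 150 CPM and the groups still do not overlap. The mean was 1.78-fold lower (log2 fold change -0.83, SE 0.05, edgeR adjusted p = 3.90e-36), or 56.1% of the control level, while EPCAM was at 4.46% and PROM2 at 1.93% of theirs. CDCP1 lies on chromosome 3 from 45082278 to 45146422, on the minus strand.

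**Figure D2:**
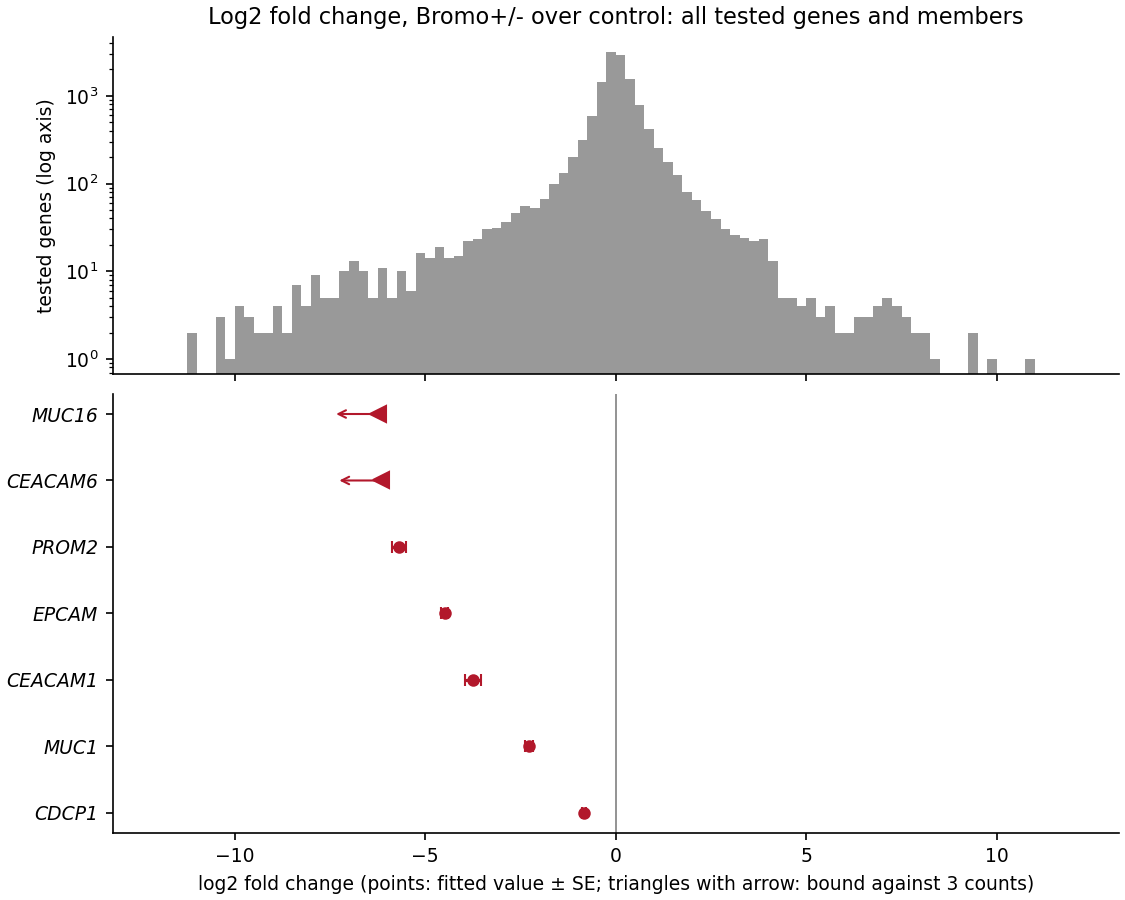
Upper panel, the number of tested genes (log axis) by fitted log2 fold change of Bromo+/- over control; lower panel, the 7 tested surface genes with their SE, and as triangles with an arrow the bounds of the 2 genes without a count in Bromo+/- cells. All 7 lie left of 0, from -0.83 for CDCP1 to bounds of at least 71.6-fold and 75.9-fold for CEACAM6 and MUC16.

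Ranked from the lowest log2 fold change of all 13179 tested genes, PROM2 was number 111, EPCAM 173, CEACAM1 224, MUC1 437 and CDCP1 1188. The median fitted log2 fold change was -4.48 for the 7 surface genes and 0.01 for all tested genes. The 7 genes were called lower under every other scaling, filter, test or block tried. They were also called lower with any 1 library left out, but such a fit has a group of 1 library, which is assumed to vary like the other group.

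Levels of different genes were compared per kb of exon, which assumes even coverage along each transcript. In Bromo+/- cells the order was CDCP1 at 23.8 ± 0.39, EPCAM at 5.19 ± 0.19, MUC1 at 2.57 ± 0.32, PROM2 at 0.494 ± 0.06, CEACAM1 at 0.382 ± 0.04 and MUC20 at 0.0608 ± 0.0318 CPM per kb, with CEACAM6, MUC16 and MUC4 uncounted. In controls the order was EPCAM at 116 ± 0.96, CDCP1 at 42.4 ± 0.35, PROM2 at 25.7 ± 0.24, MUC1 at 12.4 ± 0.17, CEACAM1 at 5.17 ± 0.25, CEACAM6 at 2.98 ± 0.02, MUC16 at 0.218 ± 0.05 and MUC20 at 0.0102 ± 0.0144 CPM per kb. CDCP1 thus stood above EPCAM in Bromo+/- cells and below it in controls, and MUC1 stood above PROM2 in Bromo+/- cells and below it in controls. The closest neighbours were PROM2 and CEACAM1 in Bromo+/- cells, where the lower PROM2 library (0.452) and the higher CEACAM1 library (0.412) nearly met, so their order there is not firm.

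**Figure D3:**
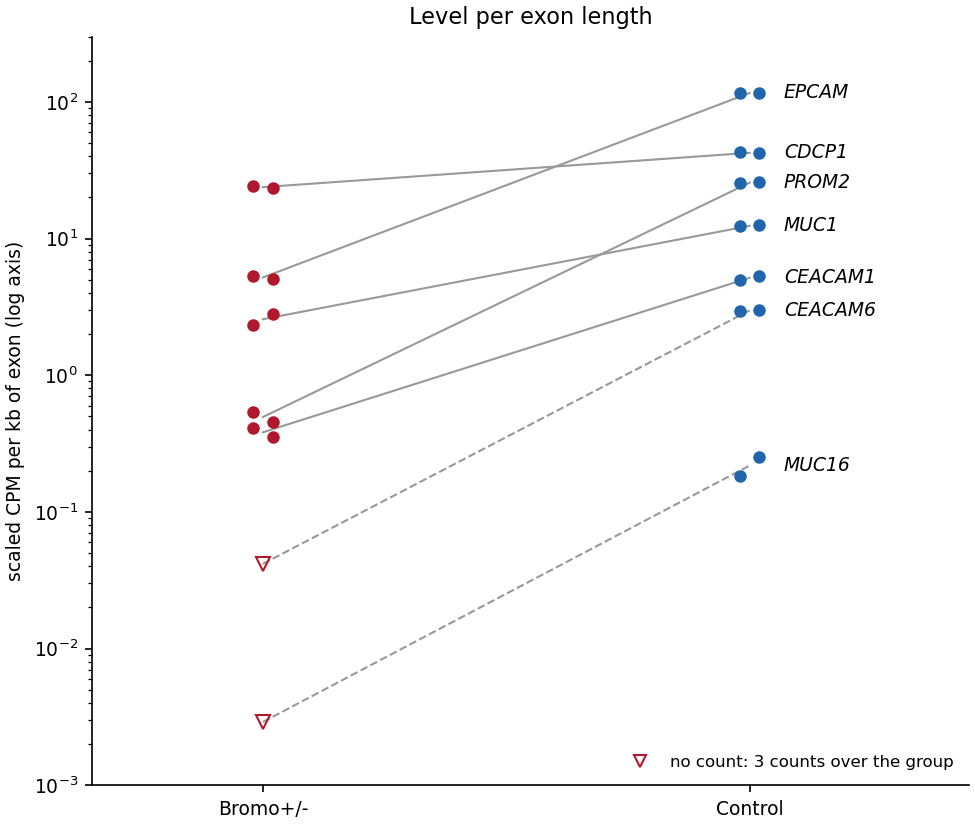
Scaled CPM per kb of exon (log axis) in Bromo+/- (red, left) and control (blue, right) libraries for the 7 tested surface genes, with lines joining group means and open triangles for genes without a count, set at 3 counts over the group. The line of CDCP1 is nearly level and crosses that of EPCAM, and the line of PROM2 crosses that of MUC1.

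Set among all tested genes by the same per-kb level, EPCAM exceeded 50.0% of them in Bromo+/- cells and 97.8% in controls. PROM2 exceeded 10.4% in Bromo+/- cells and 85.6% in controls, and MUC1 exceeded 34.0% and 71.4% in the same order. CDCP1 remained an abundant transcript, above 85.4% of tested genes in Bromo+/- cells and above 91.9% in controls. CEACAM1 exceeded 8.01% in Bromo+/- cells and 49.2% in controls.

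Secreted and other mucins were near absent. None of 15 further mucin genes had enough counts to be tested and 7 had no count at all; 1 was tested and lower with either Bromo+/- library left out or with no filter. MUC5B, a gel-forming mucin, had the most, with 1 and 0 counts in the Bromo+/- libraries, against 12 and 7 in the controls. Each of the other 7 with any count, MUC2, MUC5AC, MUC12, MUC15, MUC19, MUCL1 and MUCL3, had at most 5 counts in a library.

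Enzymes that build mucin-type O-glycans went both ways. Of 16 tested, 7 rose, 5 fell and 4 did not pass, with a median log2 fold change of 0.14. Over all tested genes 26.4% were higher and 27.1% lower. A gene among the 5 passed the filter on low counts only through the controls, and so could pass the test only by differing. GALNT3 (18.3 ± 0.42 CPM in Bromo+/- cells and 125 ± 3.73 in controls) and GALNT6 (22.9 ± 0.27 and 82.7 ± 1.68 in the same order), which attach the first sugar, fell. B3GNT3, which extends core structures, fell to 8.27 ± 0.31 CPM in Bromo+/- cells, against 148 ± 7.01 in controls (log2 fold change -4.16, SE 0.12). GALNT10, another initiating enzyme, rose to 363 ± 4.10 CPM in Bromo+/- cells, against 118 ± 0.78 in controls (log2 fold change 1.63, SE 0.06).

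Proteases and inhibitors that act on these surface proteins were mostly lower. Of 14 tested, 9 fell, 2 rose and 3 did not pass (median log2 fold change -0.26). Over all tested genes 27.1% were lower and 26.4% higher. Several of these 9 falls were small, with log2 fold changes from -0.34 to -0.25. A gene among the 9 passed the filter on low counts only through the controls, and so could pass the test only by differing. ST14, the gene of matriptase, a protease known to cleave EPCAM and CDCP1, averaged 84.9 ± 0.68 CPM in Bromo+/- cells and 482 ± 2.77 CPM in controls (log2 fold change -2.51). Its inhibitors SPINT2 (log2 fold change -2.35, SE 0.06) and SPINT1 (-1.83, SE 0.07) fell too, and PLAU, the urokinase gene, fell by 1.18. The 2 that rose, named after their values were seen, were BACE1 (1.66), a beta-secretase, and NCSTN (0.63), a subunit of gamma-secretase.

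Among binding and signalling partners, 14 of 20 tested fell, 3 rose and 3 did not pass (median -0.52). Over all tested genes 27.1% were lower and 26.4% higher. A gene among the 14 passed the filter on low counts only through the controls, and so could pass the test only by differing. CLDN7, the claudin that binds EPCAM, averaged 3.52 ± 0.27 CPM in Bromo+/- cells and 246 ± 2.51 in controls (log2 fold change -6.13). JUP, which encodes plakoglobin (-3.12), the tetraspanin gene CD82 (-4.42) and the receptor gene ERBB3 (-4.47) were lower too. SRC (0.39), ABL1 (0.50) and ERBB2 (0.15) rose, all 3 named after their values were seen. The call for ERBB2 ended without control replicate 1 (edgeR adjusted p = 0.161), control replicate 2 (0.307) or Bromo+/- replicate 1 (0.258), with no filter (0.104), with DESeq2 size factors (0.0524) and with the DESeq2 Wald test (0.207). Other epithelial surface proteins numbered 24, of which 19 fell and 1 rose (PODXL, 2.10, named after its value was seen), and their median was -1.74. Among them E-cadherin, CDH1 (-7.33), P-cadherin, CDH3 (-3.95), the integrin chain gene ITGB6 (-4.69) and CD24 (-3.82) fell. Another gene among the 19 passed the filter on low counts only through the controls, and so could pass the test only by differing.

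**Figure D4:**
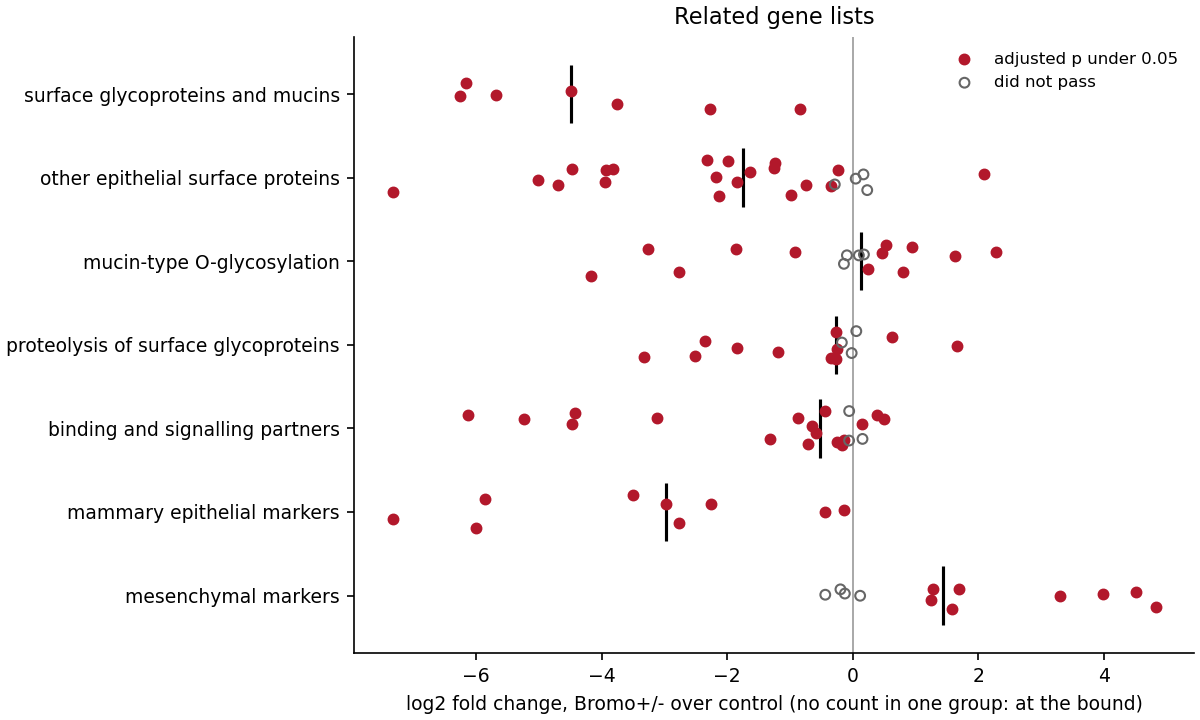
Log2 fold change of Bromo+/- over control for the tested genes of 7 lists, one point per gene, filled where the adjusted p was under 0.05, with the list median as a bar and genes without a count in one group at their bound. The surface glycoproteins lie wholly to the left, the O-glycosylation enzymes spread over both sides of 0, and the mesenchymal markers lie mostly to the right.

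The genes whose CPM over the 4 libraries lay nearest to that of EPCAM, by Euclidean distance of log2 CPM, were CD24 (distance 0.697), a lipid-anchored surface glycoprotein, LRATD2 (0.731) and MAL2 (0.890), a protein of apical transport. CD24 had 17.6 and 17.9 CPM in the Bromo+/- libraries, against 246 and 254 in the controls. LRATD2 averaged 18.7 ± 0.56 CPM in Bromo+/- cells and 285 ± 7.63 in controls, and MAL2 14.2 ± 1.43 and 444 ± 38.5, in the same order.

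The nearest tested neighbours of the surface genes were read as well, a rule added after the values of the surface genes were seen. Of 16 such neighbours, 6 were lower, 3 higher and 7 did not pass, with a median log2 fold change of -0.07. Over all tested genes 53.5% passed, 27.1% as lower and 26.4% as higher, so a call in a neighbour is common here. CALM2, a calmodulin gene 169 kb from EPCAM, averaged 532 ± 15.3 CPM in Bromo+/- cells and 690 ± 3.88 CPM in controls (log2 fold change -0.37, SE 0.05). PROM2 lies between ZNF892 (0.28, SE 0.30) and KCNIP3 (-0.11, SE 0.12), neither of which passed. TRIM46, 0.852 kb from MUC1, had 33 and 35 counts in the Bromo+/- libraries, against 8 and 11, and was higher (1.73, SE 0.38). CEACAM6 has CEACAM5 21.2 kb away on one side, and on the other RPS19 (0.11, SE 0.05), which did not pass at an edgeR adjusted p of 0.068 but did so without Bromo+/- replicate 2 (0.000859), with upper quartile scaling (0.00265), with library size alone (0.000568) and with the replicate block (0.0231). The nearest tested genes to CEACAM1, LIPE (-1.13) and LYPD3 (-2.32), were both lower, LYPD3 at a distance of 900 kb. CDCP1 lies between EXOSC7 (-0.32) and TMEM158 (0.64), whose call ended without Bromo+/- replicate 1 (edgeR adjusted p = 0.273) or control replicate 2 (0.456), with no filter (0.0717), with the replicate block (0.0527) and with the DESeq2 Wald test (0.307).

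**Figure D5:**
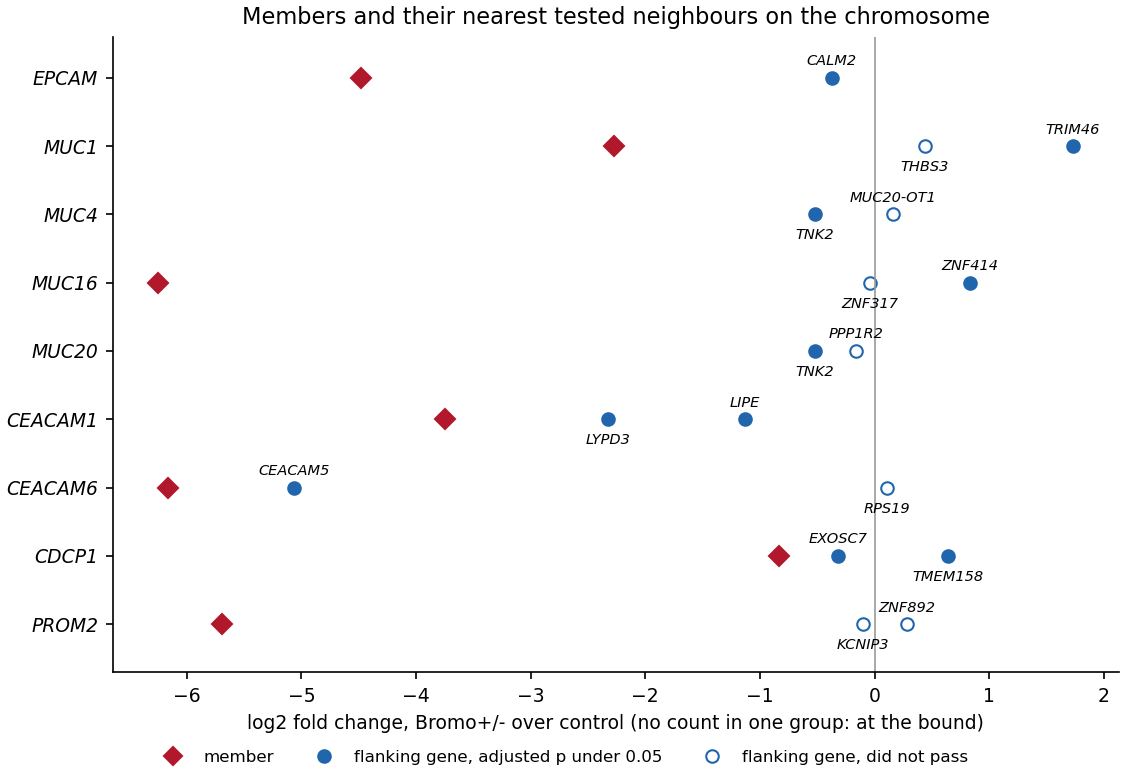
Log2 fold change of Bromo+/- over control for each surface gene (red diamonds; MUC4 and MUC20 were not tested) and its nearest tested neighbours (blue, filled where the adjusted p was under 0.05), with genes without a count in Bromo+/- cells at their bound. Most neighbours lie between -1 and 1, with LIPE, LYPD3, CEACAM5 and TRIM46 outside that range.

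Markers of other cells moved beside these genes, and their part in the result was not tested. Over all tested genes 27.1% were lower and 26.4% higher. Of 8 leukocyte markers, 3 were tested and fell (CORO1A, CSF1R and CD14), with PTPRC at 0 counts in the Bromo+/- libraries, against 1 and 0, and CD3E at 0 in all libraries. The call for CD14 ended without control replicate 1 and with the DESeq2 Wald test. The summed level of the leukocyte list was 6.54 to 7.65 CPM in Bromo+/- libraries, against 25.4 to 25.6 CPM. Of 6 endothelial markers, EGFL7 and KDR rose and PECAM1 did not pass, with a summed level of 15.1 to 18.1 CPM, against 11.7 to 12.3 CPM, and VWF at 0. The call for EGFL7 ended without Bromo+/- replicate 1. KDR no longer passed when Bromo+/- replicate 2 or control replicate 2 was left out, or with the DESeq2 Wald test; without control replicate 2, PECAM1 passed as lower (-0.91). Of 8 fibroblast markers, DCN (6.75) and COL1A1 (1.38) rose, FAP (-1.19) fell, and COL3A1 and LUM had no count. The summed level of the list was 103 to 105 CPM, against 41.3 to 43.3 CPM. DCN and KDR passed the filter on low counts only through the Bromo+/- libraries, and so could pass it only by differing. Mesenchymal markers summed to 6039.6 to 6226 CPM, against 1888 to 2002 CPM, with FBN1 (4.52), FN1 (1.69) and VIM (1.58) higher. Of the repressor genes of that list, ZEB2 (3.99) and ZEB1 (3.31) rose. SNAI1 (-0.44, SE 0.23, edgeR adjusted p = 0.0976) and SNAI2 (-0.12, SE 0.09, 0.230) did not pass, and neither did TWIST1 (0.12) or S100A4 (-0.19). These 4 and ZEB1 were named after their values were seen. Of 9 transcripts that follow RNA handling and stress, 4 rose, DUSP1 (2.49) and MALAT1 (0.59) among them, and 5 fell (3 without control replicate 2), with FOS at -2.41 and JUN at -0.55.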

How the data were processed

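The deposited table holds unnormalised counts for each Ensembl gene in 4 libraries. STAR, featureCounts 1.5.2 and GRCh38 are named in the submitters' processing notes; strand setting and handling of multiply mapped reads: not given in the sources used here. The columns named WT were matched to the non-target control as the only other genotype. Per the file headers, exon length comes from the same table.

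Counts were analysed with edgeR 4.0.16 in R 4.3.3, with filterByExpr (13179 genes kept), TMM scaling and the robust quasi-likelihood test, with Benjamini-Hochberg adjustment over all tested genes at 0.05. SE is the model's. DESeq2 1.42.0 was an alternative. A count of 3 was taken as the floor, 0.244 to 0.286 CPM per library, and floors and exact intervals cover counting error only. The scripts were tested on simulated data.

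The surface genes and the 14 other lists (166 genes, textbook knowledge) were chosen with earlier results of these data known. Named are all surface genes, up to 4 genes per list by smallest p, family genes with counts and the 3 nearest to EPCAM; KRT7, KRT14, ZEB1, SNAI1, SNAI2, TWIST1, S100A4, BACE1, NCSTN, SRC, ABL1, ERBB2, PODXL and the neighbouring genes fall outside that rule. Replicates exceeded sampling noise (chi-square per degree of freedom 2.44 in Bromo+/- and 1.56 in controls), so no library was taken for a copy. Deviations of same-numbered replicates correlated at 0.05, so the number was not used as a block. RefSeq gave windows for 7 genes. Some genes of these lists and 1 neighbouring gene are not reported here.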

Additional observations from a re-analysis of the deposited data

How the results depend on the processing

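The 7 tested surface genes were called lower under all 11 alternatives, and their count stayed at 7. EPCAM ranged from -4.52 to -4.40, PROM2 from -5.82 to -5.58, CEACAM1 from -3.87 to -3.64, MUC1 from -2.40 to -2.15 and CDCP1 from -0.85 to -0.75 on the log2 scale, and the adjusted p of MUC16 and CEACAM6 was at most 4.50e-09. Over all genes, the count called was 7055, against 7271 with the replicate block, which ended no call of a surface gene. Deviations of same-numbered libraries correlated at 0.05, and the labels give no more than the number. With 2 replicates per group, this cannot settle whether same-numbered libraries share a culture or batch. With the DESeq2 Wald test 4884 genes were called, 2592 lower and 2292 higher, against 7055, 3570 and 3485. The cause was not tested. Library size alone gave 4430 higher and 2800 lower, against 3485 and 3570. A neighbour near 0 changed sign without being called, ZNF317 at 0.015 with upper quartile scaling and 0.039 with library size alone, against -0.04. Depth limits MUC4 and MUC20, which have too few counts to show a difference.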
